A study of Homo sapiens with 18 samples.

Results

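Thrombin-treated hepatic stellate cells were compared between 48 h and 24 h of exposure, in 3 libraries per time, or 6 of the 18 libraries in all. All came from LX-2, a human line derived from hepatic stellate cells. Subcultures were held without serum for 1 h before thrombin was added at 1 U/mL, and control wells received serum-free medium alone, with harvests at 4, 24 and 48 h. Poly(A)-selected RNA was sequenced in bulk, and each of the 6 combinations of treatment and time had 3 libraries, numbered 12, 13 and 14. The 6 libraries were chosen by their titles alone, as thrombin-stimulated at 48 h and thrombin-stimulated at 24 h. The serum-free hour was shared by treated and control wells, and LX-2 is 1 line, so the comparison holds no variation between donors. What the library numbers mark is not stated, so the p-values reflect how these libraries varied, and that variation may be technical.

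Thrombin is the serine protease that turns fibrinogen into fibrin. It signals to cells by cutting protease-activated receptors, of which PAR1 is encoded by F2R. PAR1 couples through G proteins to RhoA, which polymerises actin and frees the MRTF coactivators to join serum response factor (SRF) on contractile genes, and to calcium, ERK and NF-kappa-B signalling. Stellate cells store retinoids and lipid in the quiescent liver, and after injury they become contractile, matrix-depositing myofibroblasts. The comparison of 48 h with 24 h describes which transcripts of treated cells rose or fell over the second day of exposure.

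Library totals ran from 14431044 to 23270601 counts. Stellate and myofibroblast markers summed to between 8790 and 9450 CPM at 24 h and between 7780 and 8260 CPM at 48 h, with 0 of 22 undetected (CPM, the count scaled to the TMM-adjusted library size). Most of that sum was VIM, COL1A1 and SPARC. Only 18 of the 22 had enough reads to test, and DCN and LUM had at most 2 and 5 reads in any of the 6 libraries. Hepatocyte markers, 16 genes of which 6 had no count in the 6 libraries, summed to at most 7.54 CPM, and the endothelial, macrophage and cholangiocyte lists reached at most 66.9, 102 and 230 CPM. In the last 2 lists most came from 1 gene each, CD68 at up to 86.2 CPM and SOX9 at up to 219 CPM. Set against other groups by edgeR, thrombin 48 h differed from control 48 h by 0 genes of 15353 (0% called, 1110 at an unadjusted p under 0.05, and 14 by DESeq2). It differed from control 24 h by 55 genes (0.358%; 126 by DESeq2), from thrombin 4 h by 170 (1.11%; 302 by DESeq2) and from control 4 h by 1887 (12.3%). Thrombin 24 h differed from control 24 h by 2700 (17.6%), from control 48 h by 1054 (6.87%) and from control 4 h by 513 (3.34%). These comparisons share libraries and are only set side by side. Control 24 h and thrombin 4 h, labelled as different treatments and times, differed by 11 genes (0.0716%), so every direction rests on the labels. The TMM factors were 0.945 to 0.962 in thrombin 24 h and 1 to 1.01 in thrombin 48 h libraries. With TMM, 662 genes were called higher and 830 lower in thrombin 48 h than 24 h. These were 637 and 854 with DESeq2's size factors in edgeR, and 721 and 739 with upper quartile scaling. Why the factors differ between the times was not tested.

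Between 24 h and 48 h of thrombin, 662 genes rose and 830 fell of 15353 tested, which is 4.31% and 5.41% of them (edgeR quasi-likelihood test, Benjamini-Hochberg adjusted p under 0.05, two-sided). In this text rose and fell refer to that test alone. Counts of list members that rose or fell are to be read beside those shares of all genes. Changes of at least 2-fold were less even, with 68 upwards and 147 downwards, and the median log2 fold change of all genes was 0.000681. Among the genes that fell were those of actin-based contraction, chemokines, growth factor ligands and retinoid handling. Those that rose included genes of cholesterol and fatty acid synthesis, the thrombin receptor F2R and a set of interferon-stimulated genes. Of the 1492 called genes, 643 of the risers and 807 of the fallers had 3 libraries of one time wholly apart from the 3 of the other. Over all tested genes 12.7% lay apart upwards and 13% downwards. The counts moved with single libraries: risers numbered 341 without thrombin 24 h replicate 14, 420 without thrombin 48 h replicate 12 and 379 without thrombin 48 h replicate 13, and fallers numbered 504 without the last. Without all libraries numbered 13 there were 129 and 215, and without those numbered 14 there were 293 and 454. Without those numbered 12 there were more, 842 and 1131. Leaving out the libraries labelled control 24 h and thrombin 4 h, a choice made after the data were seen, gave 528 and 731.

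**Figure D1:**
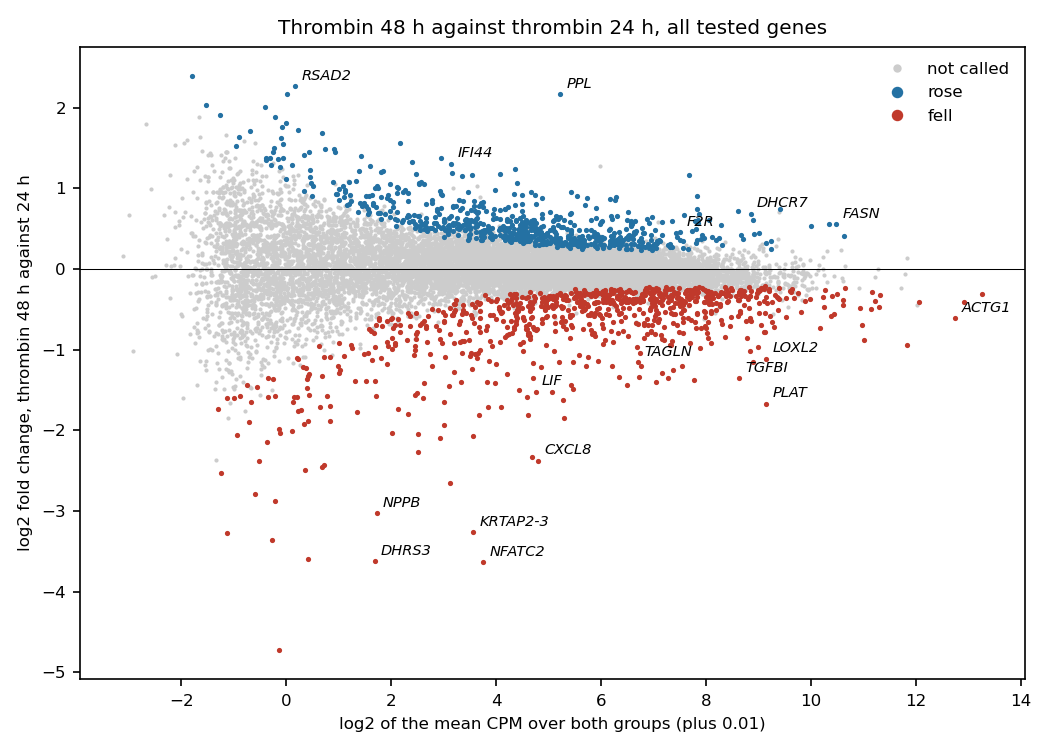
Log2 fold change of thrombin 48 h against 24 h (vertical) against the log2 mean CPM of both groups (horizontal) for the 15353 tested genes, 1 point each; blue points rose (662) and red points fell (830). The longest red arm, below -2, holds NFATC2, DHRS3, KRTAP2-3 and NPPB, while high-abundance genes such as ACTG1 and FASN changed by less than 1.

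Most tested genes of the contractile cytoskeleton fell. Of 35 tested contractile and SRF/MRTF target genes 22 fell and 0 rose, against 5.41% of all genes that fell, and the list's median log2 fold change was -0.43. TAGLN (chr11:117199294-117207465, GRCh38.p14 as are all gene positions here), which encodes the actin-binding protein transgelin, read 144, 139 and 149 CPM at 24 h and 77.1, 63.4 and 53.2 CPM at 48 h in libraries 12, 13 and 14, in that order throughout. All 3 libraries at 48 h lay below all 3 at 24 h, by -1.16 ± 0.12 (SE) on the log2 scale (edgeR adjusted p = 2.21e-07). FHL2 (chr2:105357712-105438529), a LIM-domain cofactor of actin signalling, had a tight pair of groups: 355, 374 and 348 CPM at 24 h and 189.9, 188 and 193 CPM at 48 h. Its log2 fold change was -0.92 ± 0.07 (SE) with adjusted p = 2.54e-09 (edgeR).

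The abundant cytoplasmic actin ACTG1 read 7933, 8687 and 8340.2 CPM at 24 h and 5444, 5577 and 5318 CPM at 48 h. It changed by -0.61 ± 0.07 (SE) (edgeR adjusted p = 7.42e-07), although its level is uncertain because the actin genes have near-identical copies and pseudogenes. CSRP1, a LIM protein of actin bundles, read 409, 472 and 423 CPM at 24 h and 266, 258 and 273 CPM at 48 h, a change of -0.71 with groups apart. Smooth muscle actin, ACTA2, the usual mark of the activated stellate cell, was scarce in this line: 17.96, 15.7 and 19.1 CPM at 24 h and 11.7, 10.03 and 9.58 CPM at 48 h. Calponin, CNN1, an actin-binding inhibitor of myosin, was scarce too, at 13.8, 14.95 and 15.6 CPM at 24 h and 10.2, 10.1 and 7.53 CPM at 48 h. Both fell, by -0.75 and -0.67 on the log2 scale (edgeR adjusted p = 4.84e-04 and 9.54e-04), and neither had overlapping groups. The count for the list ran from 18 to 21 when any 1 of the 6 thrombin libraries was left out, and was 9 without all libraries numbered 13.

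SRF binds the CArG box, and promoters that hold it are shown for 2 members that fell. The windows are the 250 bases before a RefSeq start site (GRCh38.p14), with the CArG box in capitals, and ACTG1 and FHL2 both lie on the minus strand, at chr17:81512800-81513049 and chr2:105438530-105438779.
ACTG1: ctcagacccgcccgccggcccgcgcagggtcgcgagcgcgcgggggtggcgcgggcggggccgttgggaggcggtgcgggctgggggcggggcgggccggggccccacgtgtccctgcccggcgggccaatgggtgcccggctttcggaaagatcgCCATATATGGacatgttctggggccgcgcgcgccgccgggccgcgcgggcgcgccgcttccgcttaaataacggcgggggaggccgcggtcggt
FHL2: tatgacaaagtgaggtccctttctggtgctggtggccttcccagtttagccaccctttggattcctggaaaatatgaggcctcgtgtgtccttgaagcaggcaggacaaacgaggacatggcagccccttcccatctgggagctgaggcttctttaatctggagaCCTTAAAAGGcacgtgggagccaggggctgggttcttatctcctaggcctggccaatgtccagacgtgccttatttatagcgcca
Searched on both strands, a CArG box stood in 170 of 11609 tested genes with a window (1.46%). It stood in 26 of 638 genes that fell (4.08%) and in 7 of 501 that rose (1.40%). Of the 30 contractile list members with a window 12 held it, and 7 of those 12 fell; the list was drawn up as SRF targets, so its share is no independent finding. A match describes the letters only, and binding was not measured.

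**Figure D2:**
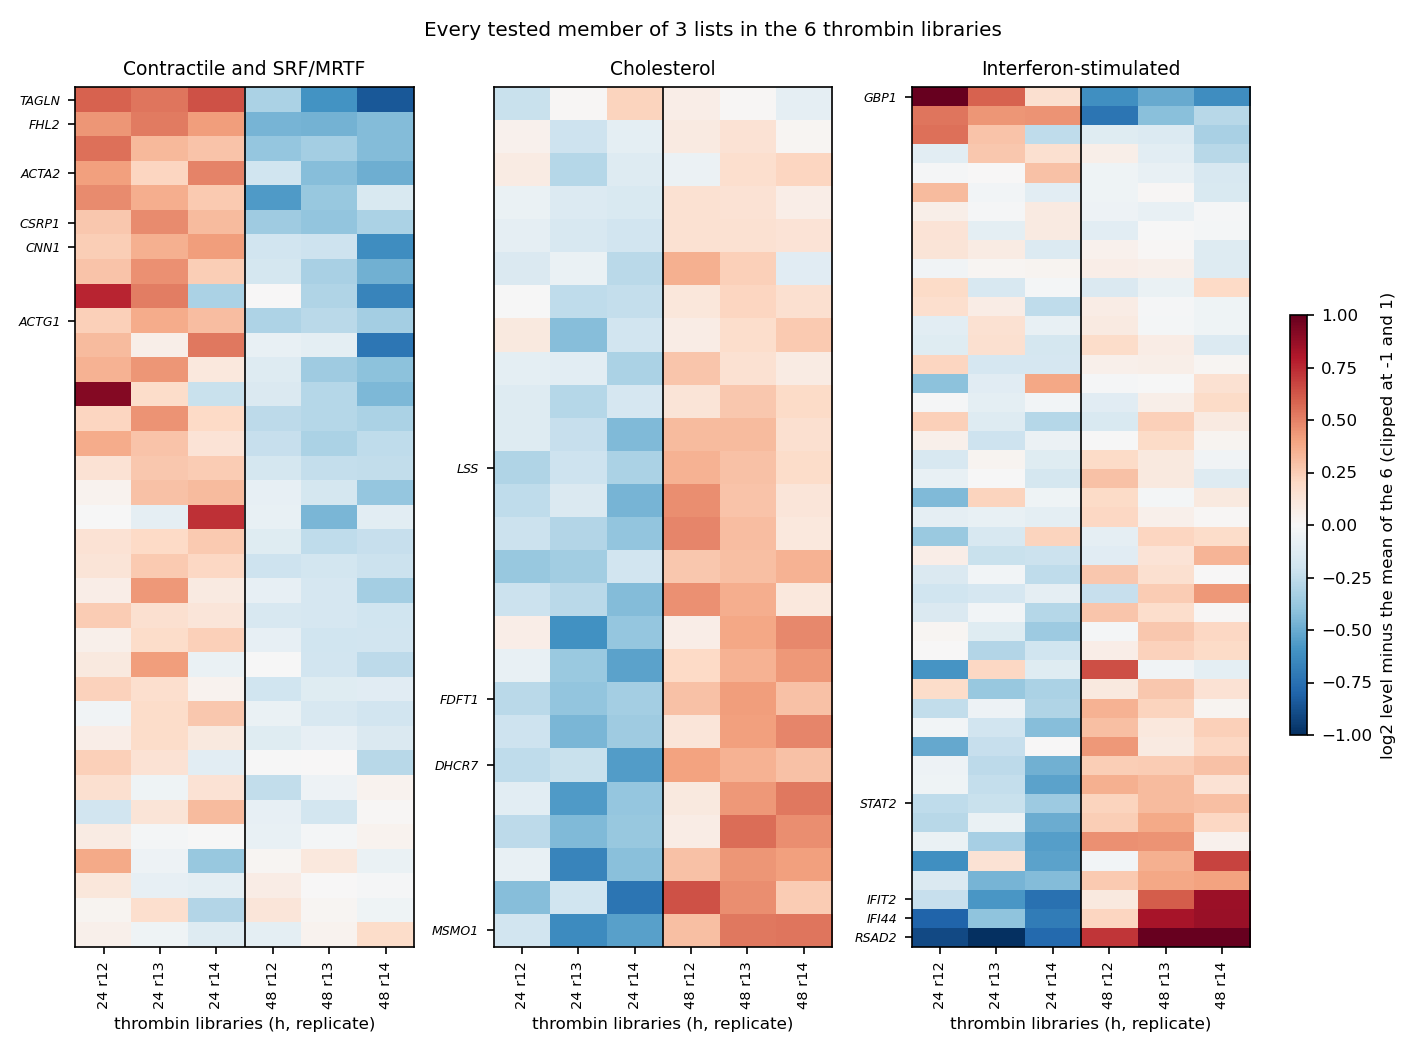
Log2 level of every tested member of the contractile (35 genes), cholesterol (26) and interferon-stimulated (45) lists in the 6 thrombin libraries, as the difference from the gene's mean over the 6; columns are 24 h then 48 h, each with replicates 12, 13 and 14, the colour is clipped at -1 and 1, and the genes named in the text are labelled. Red sits left of the line for nearly all contractile genes and right of it for nearly all cholesterol genes, while the interferon panel has both, with GBP1 at the top falling and RSAD2 at the bottom rising.

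The coactivators YAP and TAZ also answer to actin tension, and their 24 tested targets had 7 that fell and 0 that rose, with a median of -0.20. RBMS3, an RNA-binding protein gene, read 70.8, 60.6 and 56.7 CPM at 24 h and 21.8, 25.01 and 22.1 CPM at 48 h, a change of -1.44 ± 0.13 (SE) (edgeR adjusted p = 1.30e-08). IGFBP3, a carrier of insulin-like growth factors, went from 9.28, 8.77 and 9.31 CPM to 3.33, 2.81 and 2.88 CPM (-1.60), and CRIM1, a membrane-bound BMP regulator, from 636, 596 and 615 to 407, 409.7 and 445 (-0.55). In these genes the 2 times did not overlap. The 2 most widely used YAP targets, CCN1 and CCN2, did not pass the test. CCN1 read 662, 713 and 651 CPM at 24 h and 615, 651 and 620.2 CPM at 48 h (edgeR adjusted p = 0.5596). CCN2 read 141, 184 and 175 CPM at 24 h and 171, 189 and 194 CPM at 48 h (edgeR adjusted p = 0.527). CCN2 overlapped between the times, and CCN1 lay just lower in all 3 libraries at 48 h. The count for the list ran from 5 to 7 with 1 library left out, and was 2 without those numbered 13.

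Matrix genes were split. Transforming growth factor beta is the classical fibrogenic signal, and 9 of its 20 tested response genes fell and 1 rose. TGFBI, a secreted matrix adaptor, read 599, 633 and 476 CPM at 24 h and 238, 225 and 205 CPM at 48 h, a change of -1.35 ± 0.11 (SE) (edgeR adjusted p = 4.65e-09). The metalloprotease gene ADAM19 fell from 139, 148 and 167 CPM to 61.3, 58.2 and 59.3 CPM (-1.34), and SMAD7, the pathway's own inhibitor, from 30.1, 34.999 and 26.9 to 20.5, 20.3 and 19.2 (-0.61). Each of these 3 genes had every library at 48 h under every library at 24 h. Without the libraries numbered 13 the list had 3 fallers, and without those numbered 14 it had 5; its riser was lost without replicate 12 of either time.

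Among the 22 tested collagen chains 4 rose and 4 fell. COL1A1, the main fibrillar chain, read 2620.3, 2724 and 2804 CPM at 24 h and 2382, 1989 and 1813 CPM at 48 h, a change of -0.40 ± 0.10 (SE) (edgeR adjusted p = 0.0115). That call was lost when any of thrombin 24 h replicate 14, 48 h replicate 13 or 48 h replicate 14 was left out, with changes from -0.37 to -0.32. Its partner COL1A2 was scarce here, at 24.01, 23.2 and 20.5 CPM at 24 h and 22.3, 18.4 and 14.7 CPM at 48 h, with overlapping groups and adjusted p = 0.4099 (edgeR). The anchoring-fibril chain COL7A1 fell from 59.5, 57.97 and 55.7 CPM to 47.6, 43.8 and 36.6 CPM, a call lost without thrombin 48 h replicate 14 (-0.34). The basement membrane chain COL4A5 rose from 27.4, 30.9 and 30.4 to 38.01, 37.2 and 38.5. Fallers among the chains numbered 2 without thrombin 24 h replicate 13 or 14, 1 without 48 h replicate 13 and 0 without 48 h replicate 14. Risers numbered 1 without thrombin 24 h replicate 12 or 14 or 48 h replicate 12, and 2 without 48 h replicate 13.

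Enzymes that finish or cut the matrix followed. LOXL2 (chr8:23296897-23404120), which crosslinks collagen, read 752, 799 and 781 CPM at 24 h and 397, 342 and 341 CPM at 48 h. With the 2 times far apart, its change was -1.11 ± 0.09 (SE) (edgeR adjusted p = 9.74e-09). In all, 5 of 17 genes of collagen processing fell and 2 rose; the fallers numbered 3 without thrombin 24 h replicate 13 or 14 or 48 h replicate 14, and the risers 1 without replicate 13 of either time. Among the risers was the prolyl hydroxylase subunit P4HA1, from 21.7, 16.9 and 17.997 CPM to 27.6, 27.7 and 28.1 CPM. Of 25 matrix proteases and inhibitors 5 fell and 0 rose, beside 5.41% and 4.31% of all genes. TIMP3, a matrix-bound metalloprotease inhibitor, read 613, 637 and 599.9 CPM at 24 h and 311, 299.5 and 302 CPM at 48 h, a change of -1.02 (edgeR adjusted p = 5.22e-09), whereas TIMP1 overlapped between the times at 251, 307 and 291 CPM at 24 h and 238, 259 and 246 CPM at 48 h (adjusted p = 0.1899).

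Of 26 tested adhesive and matricellular glycoproteins 7 fell and 0 rose. Thrombospondin 1, THBS1, which activates latent TGF-beta, read 663, 669 and 627 CPM at 24 h and 413, 403 and 398 CPM at 48 h. THBS2 read 705, 695 and 701 CPM at 24 h and 455, 386 and 381 CPM at 48 h, FBLN2, an elastic-fibre protein gene, went from 518, 605 and 555 to 414, 362 and 303 CPM, and VTN, which encodes vitronectin, from 15.1, 13.9 and 12.1 to 7.71, 6.24 and 6.02. The log2 changes were -0.69, -0.78, -0.64 and -1.04, and in none of the 4 did the groups overlap. Of the receptors for such proteins, 6 of 15 integrin subunits fell and 1 rose. ITGA5, the fibronectin receptor's alpha chain, read 603, 722 and 659 CPM at 24 h and 289, 294 and 306 CPM at 48 h, a change of -1.16 ± 0.10 (SE) (edgeR adjusted p = 1.45e-08). ITGB8, a partner in TGF-beta release, fell from 18.7, 17.1 and 14.8 CPM to 7.53, 9.05 and 7.94 CPM, and ITGA4 from 14.6, 13.9 and 12.1 to 7.47, 8.696 and 7.33. The riser was the collagen-binding ITGA10, at 1.01, 1.97 and 1.69 CPM and then 4.26, 3.63 and 3.01 CPM. Without the libraries numbered 13, 3 integrin subunits fell, and 2 rose without thrombin 24 h replicate 13.

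Coagulation and fibrinolysis genes, the system thrombin belongs to, had 7 fallers and 1 riser among 15 tested. PLAT (chr8:42174718-42207565), which encodes tissue plasminogen activator, read 664, 941 and 992 CPM at 24 h and 270.1, 268 and 278 CPM at 48 h. Library 12 at 24 h was lower than its fellows, yet all 3 stood above 48 h, with a change of -1.67 ± 0.14 (SE) (edgeR adjusted p = 5.99e-08). F3, tissue factor, which starts the cascade that makes thrombin, read 128, 141 and 149.5 CPM at 24 h and 77.6, 84.96 and 100.5 CPM at 48 h, a change of -0.67. The riser was GAS6, a vitamin K-dependent ligand of TAM receptors, from 178, 198 and 178 CPM to 296, 266 and 257 CPM. Fallers numbered 2 without the libraries numbered 13.

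The list of thrombin receptors, related receptors and thrombin-binding proteins included genes that rose. F2R (chr5:76716126-76735770), which encodes PAR1, read 162, 157 and 140.3 CPM at 24 h and 199.7, 216 and 214 CPM at 48 h. Every library at 48 h stood above every library at 24 h, by 0.46 ± 0.08 (SE) (edgeR adjusted p = 2.50e-04). F2RL1, which encodes PAR2, was rare and rose from 2.42, 2.17 and 2.99 CPM to 3.46, 5.73 and 6.71 CPM (1.05). The protease nexin SERPINE2, an inhibitor of thrombin, read 80.9, 89.4 and 80.7 CPM at 24 h and 103, 123 and 109 CPM at 48 h, a rise of 0.42 that lost its call without thrombin 48 h replicate 13 (0.35). F2RL2, which encodes PAR3, stayed near the detection limit at 0.269, 1.16 and 0.508 CPM at 24 h and 0.555, 0.767 and 0.753 CPM at 48 h (edgeR adjusted p = 0.9105). Thrombomodulin, THBD, which turns thrombin towards protein C, read 1.35, 2.72 and 4.46 CPM at 24 h and 0.987, 1.13 and 1.44 CPM at 48 h. Its groups overlapped, and the call (edgeR adjusted p = 0.0394) was lost on leaving out any of the 6 libraries but thrombin 24 h replicate 12, with changes from -1.44 to -0.78. In all 3 of the 6 tested members of this list rose and 1 fell, and F2RL3 was too rare to test.

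**Figure D3:**
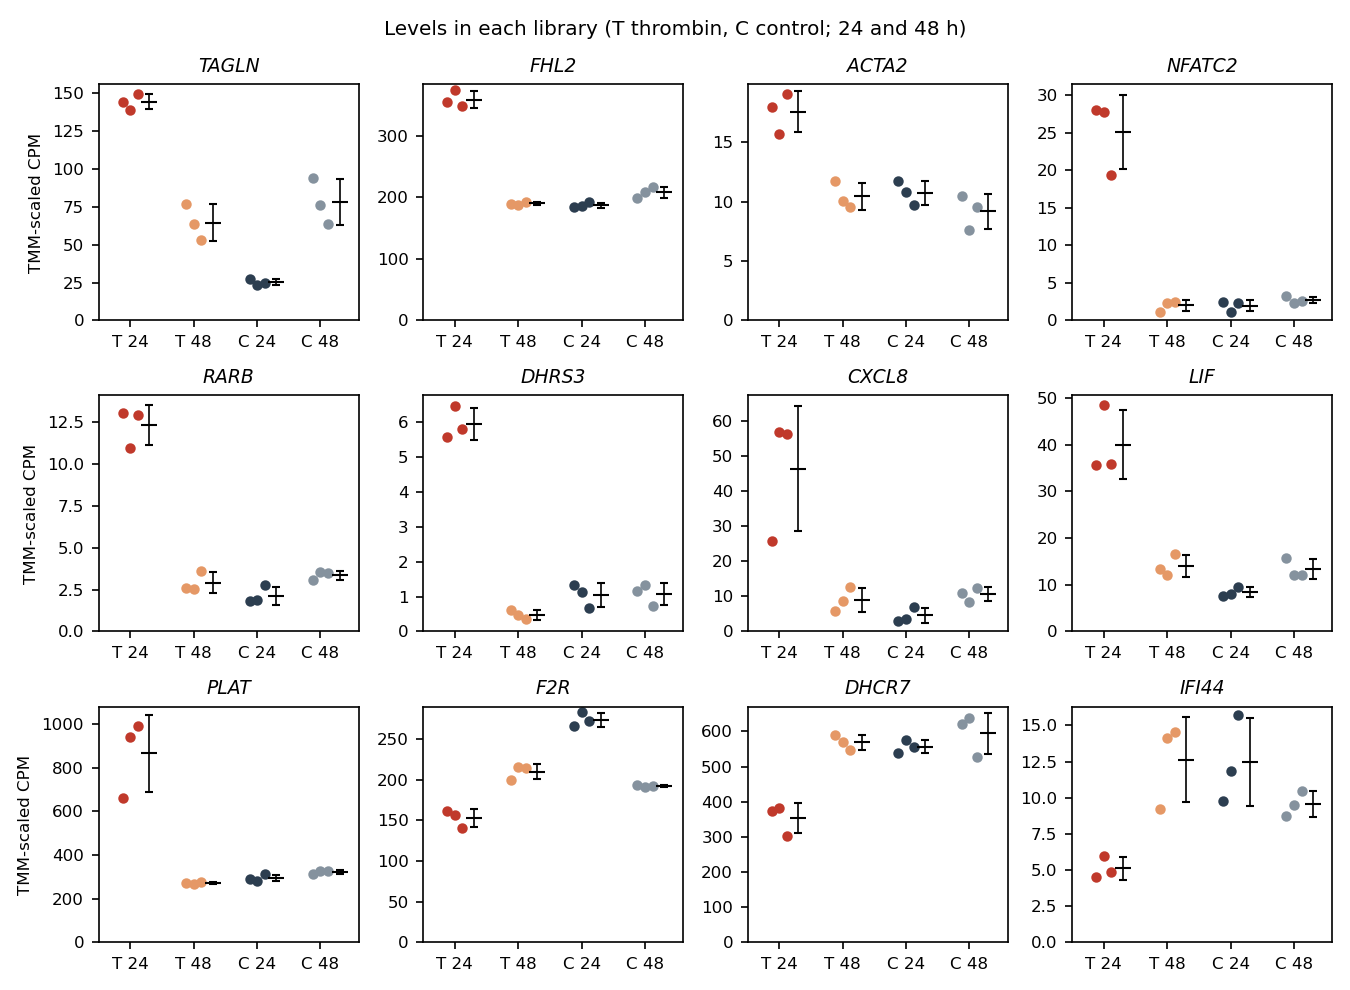
TMM-scaled CPM (vertical, from 0) of 12 genes in each library of thrombin (T) and control (C) wells at 24 and 48 h; points are replicates 12, 13 and 14 from left to right, and the bar beside them is the mean with its SD (n = 3). For NFATC2, RARB, LIF and PLAT the 3 thrombin 24 h libraries stand above all 9 others, and for F2R and DHCR7 the thrombin 24 h libraries are the lowest of the 12.

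Of 13 tested chemokines 7 fell, 1 rose and 5 were not called, and the median log2 fold change was -0.84, the lowest of the 48 lists. CXCL8, the neutrophil chemokine, read 25.96, 57.02 and 56.5 CPM at 24 h and 5.7996, 8.696 and 12.6 CPM at 48 h. Replicate 12 was the lowest at both times, and the fall was -2.38 ± 0.45 (SE) (edgeR adjusted p = 0.00417). CCL2, which draws monocytes, read 29.6, 29.02 and 20.2 CPM at 24 h and 10.6, 12.3 and 8.69 CPM at 48 h, and CXCL6, another neutrophil attractant, 11.9, 17.2 and 20.03 CPM at 24 h and 6.11, 6.599 and 8.15 CPM at 48 h. These changed by -1.31 and -1.25 with no overlap. The rarer CCL7 went from 4.04, 4.55 and 3.22 CPM to 1.296, 1.28 and 0.822 CPM and CCL26, an eotaxin, from 2.15, 1.699 and 3.27 to 0.494, 0.972 and 0.685. Leaving out 1 library left 6 or 7 fallers, and leaving out those numbered 14 left 3; the single riser was lost without thrombin 24 h replicate 12 or 14 or 48 h replicate 12 or 13.

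Interleukin and IL-6 family genes had 4 fallers of 24, beside 5.41% of all genes, and 20 were not called. LIF, an IL-6 family cytokine, read 35.7, 48.5 and 35.9 CPM at 24 h and 13.3, 12.1 and 16.6 CPM at 48 h, a change of -1.52 ± 0.22 (SE) (edgeR adjusted p = 1.09e-04). IL1B, the inflammasome cytokine, read 38.6, 71.5 and 73.2 CPM at 24 h and 13.5, 16.2 and 21.5 CPM at 48 h (-1.85), again with replicate 12 lowest at each time. LIF kept its call under every alternative. CXCL8 and IL1B lost theirs without the libraries numbered 13 or those numbered 14 (edgeR adjusted p up to 0.108 for CXCL8 and 0.124 for IL1B). IL6 itself was rare and overlapped, at 1.01, 1.16 and 0.903 CPM at 24 h and 1.05, 0.972 and 0.479 CPM at 48 h (edgeR adjusted p = 0.786). NF-kappa-B targets had 4 fallers and 1 riser of 22, beside 5.41% and 4.31% of all genes. RELB, a subunit of the non-canonical pathway, fell from 77.9, 90.8 and 65.4 CPM to 54.8, 50.5 and 48.3 CPM. Without the libraries numbered 13 the interleukins had 1 faller and the NF-kappa-B targets 0, and the NF-kappa-B riser was lost without thrombin 24 h replicate 13 or 14 or 48 h replicate 12 or 13.

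Of 30 growth factor ligands 12 fell, 1 rose and 17 were not called, with a median of -0.45. The list also counts NPPB, which encodes the natriuretic peptide BNP rather than a growth factor. It read 5.58, 5.505 and 6.54 CPM at 24 h and 0.925, 0.614 and 0.616 CPM at 48 h, one of the largest falls among the named genes. The change was -3.03 ± 0.30 (SE) (edgeR adjusted p = 1.30e-07). NRG1, the ERBB ligand neuregulin, read 80.2, 93.6 and 85.4 CPM at 24 h and 43.2, 45.2 and 47.9 CPM at 48 h, and PDGFA, a mitogen of stellate cells, went from 40.3, 48.1 and 43.6 CPM to 28.4, 25.7 and 23.4 CPM. FGF2 read 136, 141 and 109 CPM at 24 h and 75.4, 82.2 and 83.1 CPM at 48 h, and HBEGF, an EGF receptor ligand, 46.6, 59.2 and 51.1 CPM at 24 h and 35.8, 34.7 and 35.2 CPM at 48 h. These 4 changed by -0.93, -0.77, -0.68 and -0.57 and had no overlap. Without the libraries numbered 13 the list had 6 fallers, and its riser was lost without thrombin 24 h replicate 12 or 14 or 48 h replicate 12 or 13.

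On the receptor side, 3 of 26 growth factor receptors fell and 0 rose, beside 5.41% and 4.31% of all genes. PDGFRA was rare and fell from 4.17, 3.74 and 4.46 CPM to 1.296, 1.53 and 1.92 CPM (-1.39), whereas PDGFRB, the receptor typical of stellate cells, overlapped at 70.01, 64.6 and 54.7 CPM at 24 h and 86.7, 73.1 and 57.1 CPM at 48 h (edgeR adjusted p = 0.522). Of 9 IGF-binding proteins 4 fell and 0 rose, beside the same shares of all genes. IGFBP6, which favours IGF-II, read 190.3, 262 and 212 CPM at 24 h and 87.8, 86.7 and 85.6 CPM at 48 h, a change of -1.35 ± 0.11 (SE) (edgeR adjusted p = 4.65e-09). PCDH7, a protocadherin on the stellate marker list, fell from 132, 151 and 148 CPM to 69.5, 71.7 and 68.3 CPM; 6 of that list's 18 tested members fell and 0 rose. In bulk RNA, fewer cells of a type and less RNA per cell cannot be told apart. The marker list count was 3 without thrombin 48 h replicate 14.

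Calcium-linked genes gave some of the largest falls. NFATC2 (chr20:51386963-51562839), a transcription factor released by calcineurin, read 28.05, 27.7 and 19.4 CPM at 24 h and 1.17, 2.35 and 2.46 CPM at 48 h. Its mean was 25.1 ± 4.898 CPM at 24 h and 1.997 ± 0.716 CPM at 48 h (SD, n = 3), a change of -3.64 ± 0.24 (SE) (edgeR adjusted p = 4.56e-10). TRPC4, a receptor-operated cation channel, read 12.04, 9.92 and 6.21 CPM at 24 h and 1.67, 1.84 and 2.33 CPM at 48 h (-2.27). Both genes kept their groups apart. In the list they come from, 2 of 18 fell and 1 rose, beside 5.41% and 4.31% of all genes. The list's median was 0.09. The riser was lost without thrombin 24 h replicate 12 or 14.

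Some genes of retinoid handling were among the largest falls. Of 19 quiescence, retinoid and lipid droplet genes 6 fell, 1 rose and 12 were not called, and the median was -0.08. DHRS3 (chr1:12567910-12618210), which reduces retinaldehyde back to retinol, read 5.58, 6.46 and 5.81 CPM at 24 h and 0.617, 0.4604 and 0.342 CPM at 48 h, and the change was -3.62 ± 0.30 (SE) (edgeR adjusted p = 7.12e-09). RARB (chr3:24829321-25597932), the retinoic acid receptor beta and itself a classical retinoic acid target, read 13.05, 10.9 and 12.9 CPM at 24 h and 2.59, 2.51 and 3.63 CPM at 48 h, a change of -2.09 ± 0.19 (SE) (edgeR adjusted p = 4.25e-08). CYP26B1, which degrades retinoic acid, read 22.1, 22.1 and 17.3 CPM at 24 h and 8.95, 7.11 and 7.26 CPM at 48 h (-1.40). All 3 are known retinoic acid-responsive genes, and in each the 2 times did not overlap. STRA6, the cellular uptake receptor for retinol, was rare at 1.28, 1.02 and 1.13 CPM at 24 h and 0.308, 0.0512 and 0.137 CPM at 48 h (-2.78), resting on 54 and 8 reads in all. RELN, a stellate cell glycoprotein gene, fell from 11.4, 12.03 and 14.6 CPM to 2.53, 2.86 and 4.66 CPM (-1.94). Fallers in the list numbered 5 or 6 under every library left out, and 5 without each replicate number in turn; its riser was lost without thrombin 24 h replicate 13 or 14 or 48 h replicate 12 or 13.

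The RARB promoter holds the direct repeat 5 retinoic acid response element, in capitals below, and is shown because this was the only gene that fell with that element in its window. The window is chr3:25428013-25428262 on the plus strand (GRCh38.p14, RefSeq), inside the gene and before 1 of its start sites.
RARB: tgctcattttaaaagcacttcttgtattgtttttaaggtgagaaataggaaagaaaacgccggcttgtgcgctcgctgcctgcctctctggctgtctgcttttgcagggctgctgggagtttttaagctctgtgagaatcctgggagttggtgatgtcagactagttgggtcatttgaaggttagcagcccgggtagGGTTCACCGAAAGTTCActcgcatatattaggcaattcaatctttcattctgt
The element, searched on both strands, stood in 8 of 11609 tested genes with a window (0.0689%), in 1 of 638 that fell and in 0 of 501 that rose. Its absence from other windows says only that these letters are not there.

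Keratins and their partners gave large changes in both directions, with 5 of 12 epithelial genes falling and 2 rising. KRTAP2-3, a hair keratin-associated protein gene, read 12.8, 21.4 and 30.1 CPM at 24 h and 1.73, 2.35 and 2.67 CPM at 48 h, a change of -3.26 ± 0.42 (SE) (edgeR adjusted p = 9.78e-05). KRTAP2-4 went from 1.08, 1.903 and 3.44 CPM to 0.247, 0.307 and 0.616 CPM (-2.50), but the 2 are near copies and reads could be split between them. KRT33B, from 2.15, 2.45 and 3.55 to 0.555, 0.665 and 0.205 CPM (-2.46), and KRT81, from 27.98, 39.8 and 39.9 to 16.5, 9.92 and 9.58 (-1.58), are hair keratins. KRT8, a simple-epithelium keratin with many pseudogenes, read 152, 207 and 189.6 CPM at 24 h and 133, 107 and 94.5 CPM at 48 h (-0.71). Against these, PPL, periplakin, a linker of the cornified envelope, read 16.5, 14.5 and 10.04 CPM at 24 h and 72.9, 63.8 and 46.1 CPM at 48 h, and rose by 2.17 ± 0.26 (SE) (edgeR adjusted p = 4.55e-05). The list kept 5 fallers with any 1 library left out and 1 without those numbered 13; its risers numbered 1 without replicate 13 or 14 of either time.

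Cholesterol genes rose together. Of 26 tested genes of cholesterol synthesis and uptake 20 rose and 0 fell, against 4.31% of all genes that rose, and the median log2 fold change was 0.59, the highest of the 48 lists. DHCR7 (chr11:71427287-71449043), which makes cholesterol from its last precursor, read 375, 383 and 303 CPM at 24 h and 591, 569.5 and 548 CPM at 48 h. All libraries at 48 h stood above all at 24 h, by 0.69 ± 0.09 (SE) (edgeR adjusted p = 4.70e-06). FDFT1, squalene synthase, read 155, 142 and 147 CPM at 24 h and 229, 249 and 228 CPM at 48 h (0.67). MSMO1, a sterol demethylation enzyme, read 189, 139 and 148 CPM at 24 h and 266, 309.9 and 312 CPM at 48 h (0.90), and LSS, lanosterol synthase, read 248, 265 and 244 CPM at 24 h and 388, 374 and 347 CPM at 48 h (0.55). The pathway is driven by SREBP2, whose binding letters TCACNCCAC were searched on both strands. They stood in 1 of 19 list members with a window (5.26%), beside 132 of 11609 tested genes with a window (1.14%). No sequence is shown, and binding was not measured. Risers ran from 16 to 21 with 1 library left out and numbered 10 without those numbered 13.

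Fatty acid and triglyceride synthesis had 11 risers and 0 fallers of 25. FADS1, the delta-5 desaturase, read 410.4, 389 and 334 CPM at 24 h and 595, 581 and 552 CPM at 48 h, a rise of 0.61 ± 0.09 (SE) (edgeR adjusted p = 3.19e-05). ACSS2, which makes acetyl-CoA from acetate, went from 58.5, 59.2 and 56.6 CPM to 92.1, 91.7 and 83.9 CPM (0.62). FADS2, the delta-6 desaturase, read 1129, 1150.5 and 895 CPM at 24 h and 1682, 1555 and 1437 CPM at 48 h, and FASN, the fatty acid synthase itself, 1117, 1105 and 1258 CPM at 24 h and 1872, 1647 and 1608 CPM at 48 h. They rose by 0.56 and 0.56 with no overlap. Risers numbered 4 without the libraries numbered 13.

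**Figure D4:**
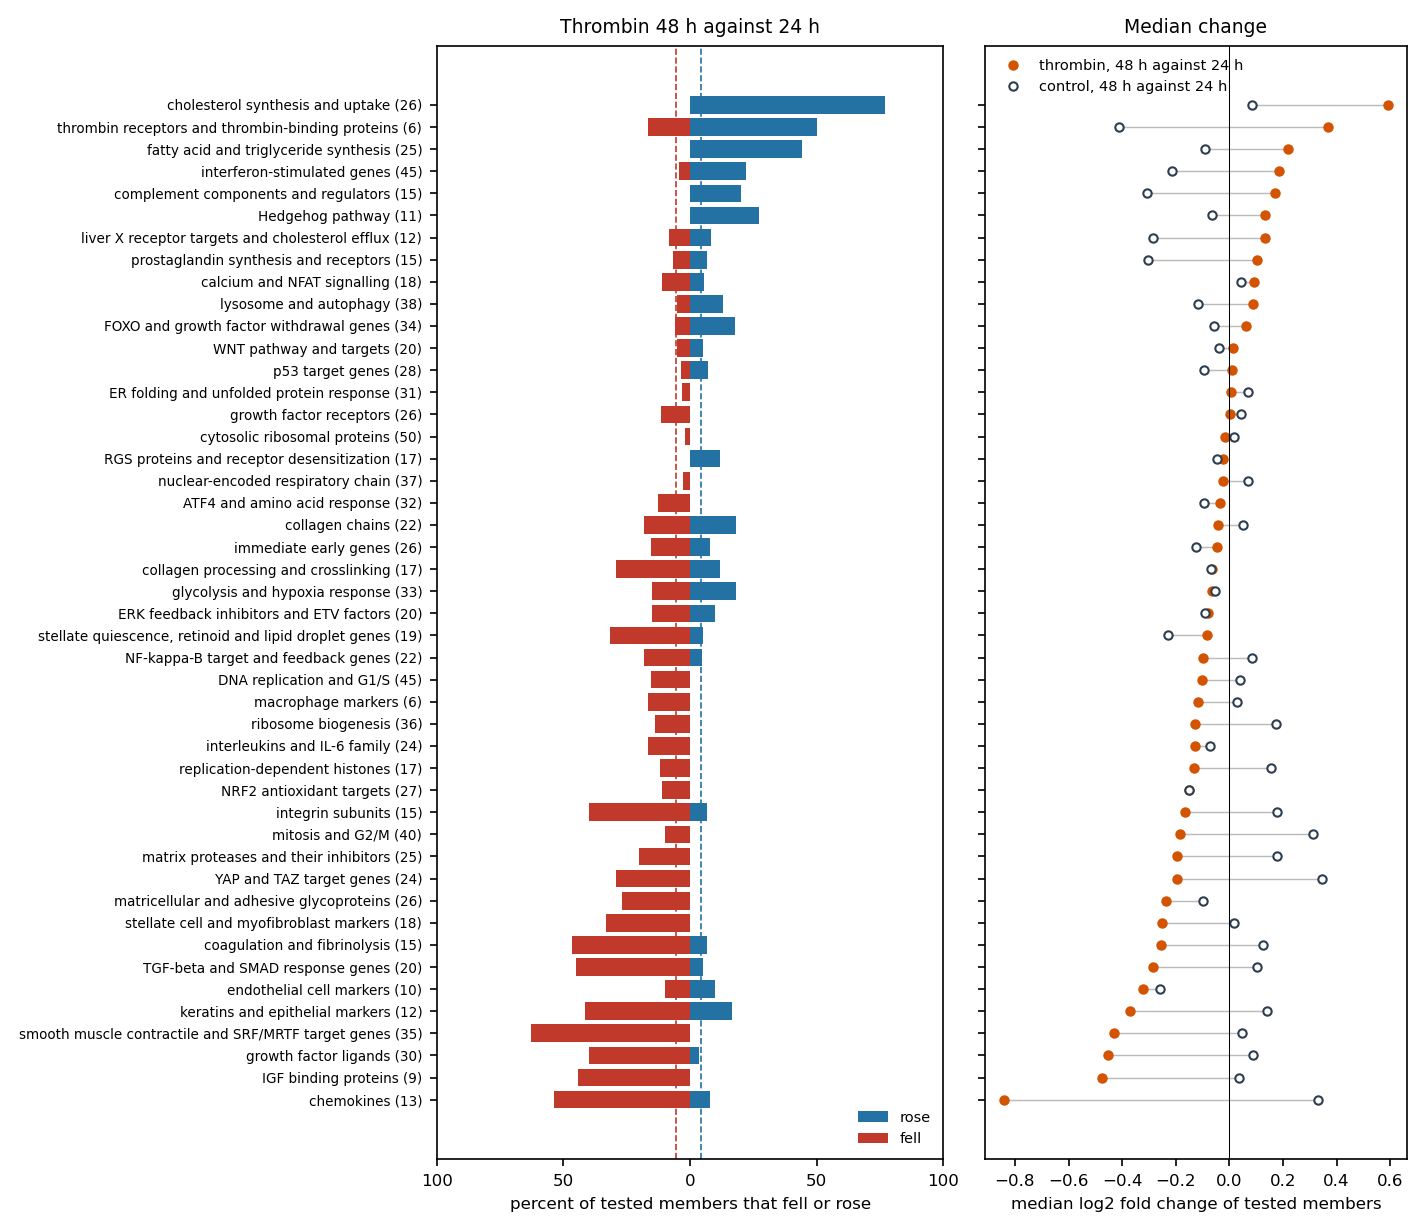
Left, percent of the tested members of each list (number tested in brackets) that fell (red, leftwards) or rose (blue, rightwards) in thrombin 48 h against 24 h, with dashed lines at the shares over all genes (5.41% and 4.31%). Right, the list's median log2 fold change in thrombin (filled) and in control (open) for the same interval; the medians lie furthest apart for chemokines, and the thrombin median is above the control one for the cholesterol, thrombin receptor and interferon lists.

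Interferon-stimulated genes rose in part. Of 45 tested members 10 rose and 2 fell, and 34 had a positive log2 fold change, with a median of 0.19. STAT2, a subunit of the interferon-activated factor ISGF3, read 79.3, 80.9 and 73.4 CPM at 24 h and 110.1, 118 and 116 CPM at 48 h, a rise of 0.56 ± 0.08 (SE) (edgeR adjusted p = 2.43e-05). IFI44 (chr1:78649789-78664078), an antiviral cytoplasmic protein gene, read 4.51, 5.98 and 4.85 CPM at 24 h and 9.25, 14.1 and 14.5 CPM at 48 h (1.31), and IFIT2, an inhibitor of viral translation, 16.5, 12.8 and 11.5 CPM at 24 h and 20.7, 29.5 and 34.98 CPM at 48 h (1.07). RSAD2, which encodes viperin, was rare at 0.404, 0.272 and 0.451 CPM at 24 h and 1.48, 1.89 and 2.19 CPM at 48 h, and its rise of 2.26 ± 0.43 (SE) (edgeR adjusted p = 8.07e-04) was the largest among the named genes. GBP1, a guanylate-binding protein gene induced by interferon gamma and by NF-kappa-B, went down instead, from 195, 148 and 109.7 CPM to 63.98, 69.1 and 63.7 CPM (-1.20). The list's risers numbered 5 without thrombin 24 h replicate 14 or without thrombin 48 h replicate 13, and 4 without all libraries numbered 13.

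The IFI44 promoter is shown for its interferon-stimulated response element, which sits just before the start site. The window is chr1:78649539-78649788 on the plus strand (GRCh38.p14, RefSeq), with the letters GAAA, any 2 bases and GAAA, here on the opposite strand, in capitals.
IFI44: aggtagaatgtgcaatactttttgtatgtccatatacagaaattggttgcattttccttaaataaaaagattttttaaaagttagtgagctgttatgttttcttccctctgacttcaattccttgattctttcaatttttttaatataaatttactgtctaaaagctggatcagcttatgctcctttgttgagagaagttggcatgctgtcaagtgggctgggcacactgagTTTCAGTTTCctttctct
These letters, searched on both strands, stood in 393 of 11609 tested genes with a window (3.39%). They stood in 23 of 501 genes that rose (4.59%), in 19 of 638 that fell (2.98%), and in 21 of 34 interferon list members (61.8%), of which 7 rose and 2 fell. That list holds genes known for this element, so its share is no independent finding.

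Smaller lists with risers followed. Complement had 3 risers of 15, beside 4.31% of all genes. C3, the central component, went from 1.95, 1.22 and 1.298 CPM to 2.96, 4.86 and 3.83 CPM (1.39) and lost its call without thrombin 48 h replicate 13 (1.19). C1QTNF1 went from 6.59, 7.88 and 5.59 to 15.6, 9.72 and 8.8997 (0.78) and lost its own without 24 h replicate 14 (0.66) or 48 h replicate 12 (0.49). Risers numbered 1 without thrombin 24 h replicate 14 or 48 h replicate 12 or 13. Lysosome and autophagy genes had 5 risers and 2 fallers of 38, the fallers close to the 5.41% of all genes, with NEU1, a lysosomal sialidase, at 58.6, 62.8 and 57.5 CPM at 24 h and 85.4, 85.8 and 81.7 CPM at 48 h (0.50, edgeR adjusted p = 2.39e-04). Those fallers numbered 1 without replicate 13 or 14 of either time. The cathepsin gene CTSS rose from 2.62, 2.24 and 1.97 CPM to 6.05, 8.54 and 5.34 CPM (1.56). Genes that FOXO factors raise when growth signals fade had 6 risers and 2 fallers of 34, the fallers again near the 5.41% of all genes. TXNIP, a brake on glucose uptake, read 74.2, 77.9 and 62.5 CPM at 24 h and 113, 112 and 102 CPM at 48 h (0.61), and MXI1, a MYC antagonist, 14.7, 16.4 and 10.9 CPM at 24 h and 23.3, 24.5 and 23.3 CPM at 48 h (0.77). CDKN1B, the cyclin-dependent kinase inhibitor p27, fell, from 136, 149.8 and 145 CPM to 101, 104 and 114 CPM.

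Hedgehog signalling activates stellate cells, and 3 of its 11 tested genes rose, beside 4.31% of all genes. PTCH1, the receptor that is also a target, read 21.5, 20.999 and 20.4 CPM at 24 h and 31.5, 34.2 and 30.2 CPM at 48 h, a rise of 0.61 ± 0.11 (SE) (edgeR adjusted p = 3.81e-04), with the groups apart. GLI1, the most direct readout, overlapped at 15.1, 10.3 and 9.196 CPM at 24 h and 16.2, 14.6 and 12.7 CPM at 48 h (adjusted p = 0.179, edgeR); without thrombin 24 h replicate 12 it passed, at 0.57. Immediate early genes had 4 fallers and 2 risers of 26, beside 5.41% and 4.31% of all genes. MYC read 169, 195 and 167 CPM at 24 h and 128, 119 and 120.5 CPM at 48 h (-0.53), FOSL1, a late AP-1 subunit, 333, 464 and 479 CPM at 24 h and 214, 226 and 270.3 CPM at 48 h (-0.84), and FOSB went from 4.98, 6.05 and 5.13 CPM to 2.47, 2.92 and 2.67 CPM (-0.997). KLF4 rose, from 20.04, 25.3 and 17.04 to 33.3, 41.4 and 39.8 (0.88). EGR1 read 45.9, 46.3 and 19.6 CPM at 24 h and 94.4, 92.1 and 81.7 CPM at 48 h, with every library at 48 h higher. It was not called (1.27 ± 0.45 (SE), edgeR adjusted p = 0.102), nor was it with its lowest library, thrombin 24 h replicate 14, left out. The risers numbered 1 without thrombin 24 h replicate 12 or 14 or 48 h replicate 12 or 13.

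Antioxidant targets of NRF2 had 3 fallers of 27, beside 5.41% of all genes. NQO1, a quinone reductase, read 87.5, 94.5 and 109.6 CPM at 24 h and 48.9, 52.1 and 55.3 CPM at 48 h, a change of -0.90 ± 0.10 (SE) (edgeR adjusted p = 8.73e-07), and TXNRD1, thioredoxin reductase, 483, 435 and 487 CPM at 24 h and 295, 309 and 337 CPM at 48 h (-0.58). Fallers numbered 5 without thrombin 24 h replicate 12. The ATF4 list had 4 fallers of 32, beside the same 5.41%. SLC7A5, the leucine transporter on that list, fell from 35.6, 53.3 and 49.99 CPM to 19.003, 24.5 and 24.99 CPM (-1.02). Among 28 p53 targets 2 rose and 1 fell, near the 4.31% and 5.41% of all genes, and the risers numbered 1 without thrombin 24 h replicate 14, 48 h replicate 12 or 48 h replicate 14. BBC3, the death effector PUMA, went from 17.6, 20.9 and 13.03 to 30.9, 27.5 and 25.6 (0.71), and PLK2 from 361, 291 and 313 to 205, 208 and 201 (-0.65); fallers on that list numbered 2 without thrombin 24 h replicate 12. The glycolysis and hypoxia list, with 33 tested genes, had 6 risers and 5 fallers, beside 4.31% and 5.41% of all genes. Among the risers was the enolase ENO2, at 74.05, 72.9 and 74.2 CPM at 24 h and 107, 105 and 100.02 CPM at 48 h. Among the fallers was NDRG1, at 94.1, 113 and 97.8 CPM at 24 h and 61.5, 55.6 and 58.7 CPM at 48 h. Risers there numbered 2 without thrombin 48 h replicate 14 and 3 without any 1 of the others but thrombin 24 h replicate 12, and fallers 8 without that library and 3 without 24 h replicate 13.

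Proliferation genes leaned down, and most of them were not called. Of 40 mitotic genes 39 had a negative log2 fold change, with a median of -0.19 against 0.000681 over all genes. Of the 40 genes 4 fell, beside 5.41% of all genes. That count was 7 without thrombin 24 h replicate 13, 2 without 48 h replicate 12, and 0 without 24 h replicate 14, 48 h replicate 13 or 48 h replicate 14. DNA replication genes had 7 fallers of 45, beside 5.41% of all genes, or 4 without thrombin 24 h replicate 14 or 48 h replicate 12. Ribosome biogenesis had 5 of 36, beside the same share, or 2 without thrombin 24 h replicate 14 or 48 h replicate 12 or 13. Among the 5 was RRP12, at 68.4, 75.03 and 82.2 CPM at 24 h and 52.7, 48.4 and 50.8 CPM at 48 h (-0.57). WNT (20 tested), liver X receptor (12) and prostaglandin (15) lists had 1 riser and 1 faller each, beside 4.31% and 5.41% of all genes. The WNT riser was lost without thrombin 24 h replicate 14 or 48 h replicate 12. WNT fallers numbered 0 without 24 h replicate 14 or any 1 library at 48 h, and 2 without 24 h replicate 12. The liver X receptor riser was lost without any 1 of the 6 libraries but 24 h replicate 13. The prostaglandin faller was lost without 24 h replicate 13 or 48 h replicate 12 or 14. Cytosolic ribosomal proteins (1 faller of 50), the respiratory chain (1 of 37) and ER folding genes (1 of 31) stood under the 5.41% of all genes, and these single calls were lost without thrombin 24 h replicate 14 or 48 h replicate 13, among others.

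Some of the largest changes fell on genes outside the lists, or on lists with few calls. LMNTD1, a lamin-tail domain gene, read 1.61, 1.903 and 1.75 CPM at 24 h and 0.0617, 0.102 and 0 CPM at 48 h, the largest fall of the named genes (-4.73 ± 0.66 (SE), edgeR adjusted p = 2.06e-05). It rests on 83 reads at 24 h and 3 at 48 h, a ratio per library size of 27.7 with a 95% exact interval from 9.16 to 137, which covers counting error only. BTBD11 went from 12.1, 16.4 and 16.4 CPM to 2.22, 2.51 and 2.396 CPM (-2.65). Both genes had groups far apart at low to moderate levels. Upwards, PTK6, a non-receptor tyrosine kinase, went from 0.269, 0.272 and 0.339 CPM to 1.23, 1.33 and 1.03 CPM (2.00), SORBS2 from 0.807, 0.408 and 0.395 to 1.67, 1.69 and 1.99 (1.73), and KCNH1, a potassium channel gene, from 1.01, 0.748 and 0.508 to 2.78, 2.15 and 2.33 (1.69). SPRY1, which restrains receptor tyrosine kinase signalling, went from 0.7398, 0.136 and 0.226 to 2.34, 1.53 and 1.03 (2.17). In its list of ERK feedback inhibitors and ETV factors 2 of 20 rose and 3 fell, beside 4.31% and 5.41% of all genes. FOSL1 was among the fallers. The risers numbered 1 without thrombin 24 h replicate 13 or 48 h replicate 12, and the fallers 5 without 24 h replicate 12. Also higher were PPARGC1A, the mitochondrial biogenesis coactivator, which went from 0.404, 0.476 and 0.395 to 1.17, 0.8696 and 2.601 (1.81), MOV10L1 from 0.605, 0.408 and 0.113 to 1.48, 1.64 and 0.88997 (1.88), and TRPV6, a calcium channel gene, from 0.269, 0.544 and 0.508 to 0.802, 1.28 and 2.12 (1.63). Of the 10 largest increases 4 lost their call when a single library was left out: SPRY1 (1.80 without thrombin 24 h replicate 13, 1.89 without 24 h replicate 14, 1.83 without 48 h replicate 12), PPARGC1A (1.76 without 24 h replicate 14, 1.24 without 48 h replicate 14), MOV10L1 (1.41 without 24 h replicate 14, 1.70 without 48 h replicate 13) and TRPV6 (1.39 without 24 h replicate 12, 1.75 without 24 h replicate 14, 1.23 without 48 h replicate 14). All these risers had means under 3 CPM at both times.

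The same interval was also measured in control wells. Control 48 h against control 24 h gave 413 risers (2.69%) and 527 fallers (3.43%), counts that fell to 96 and 118 without control 24 h replicate 12 and to 116 and 149 without control 24 h replicate 13. They were 145 and 155 without control 48 h replicate 12 and 173 and 185 without control 48 h replicate 13. Of the 662 genes that rose with thrombin 107 fell in control and 2 rose, and of the 830 that fell 126 rose in control and 19 fell. Across all 15353 genes, which are not independent replicates, the 2 changes had Pearson r = -0.26 and Spearman rho = -0.24. The change itself differed between thrombin and control wells in 2126 genes (13.8%), 1100 higher in thrombin (7.16%; 732 without control 24 h replicate 12) and 1026 lower (6.68%).

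By list, the contractile genes had 18 members whose change was lower in thrombin and 1 higher, the mitotic genes 27 and 0, and the YAP targets 16 and 0. In control wells 23 of 40 mitotic genes and 9 of 24 YAP targets rose, so there the difference came with movement in control. TAGLN read 25.1 ± 1.92 CPM at 24 h and 78.1 ± 15.2 CPM at 48 h in control (SD, n = 3), a rise where thrombin wells fell. The retinoid genes DHRS3, at 1.04 ± 0.345 CPM at 24 h and 1.07 ± 0.312 CPM at 48 h in control, and RARB, at 2.14 ± 0.541 CPM at 24 h and 3.35 ± 0.264 CPM at 48 h, were not called there. NFATC2 read 1.96 ± 0.724 CPM at 24 h and 2.73 ± 0.434 CPM at 48 h in control, so that its level in thrombin wells at 24 h stood above every other group at these times. Of all tested list members, called or not, 15 of 26 cholesterol and 19 of 45 interferon-stimulated genes had a change higher in thrombin, against 0 and 2 lower. In control wells 6 interferon-stimulated genes fell and 0 rose, with a median of -0.21, so that difference too came with movement in control. Of the cholesterol genes 1 rose in control and 0 fell, with a median of 0.09. KCP, a BMP regulator named for the size of that difference, went from 0.404, 0.612 and 0.395 CPM to 1.11, 1.18 and 1.16 CPM with thrombin, an adjusted p of 0.0403 (edgeR) that was lost under each single library left out, with changes from 1.17 to 1.51, and from 1.84 ± 0.0906 CPM at 24 h and 0.636 ± 0.323 CPM at 48 h in control.

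**Figure D5:**
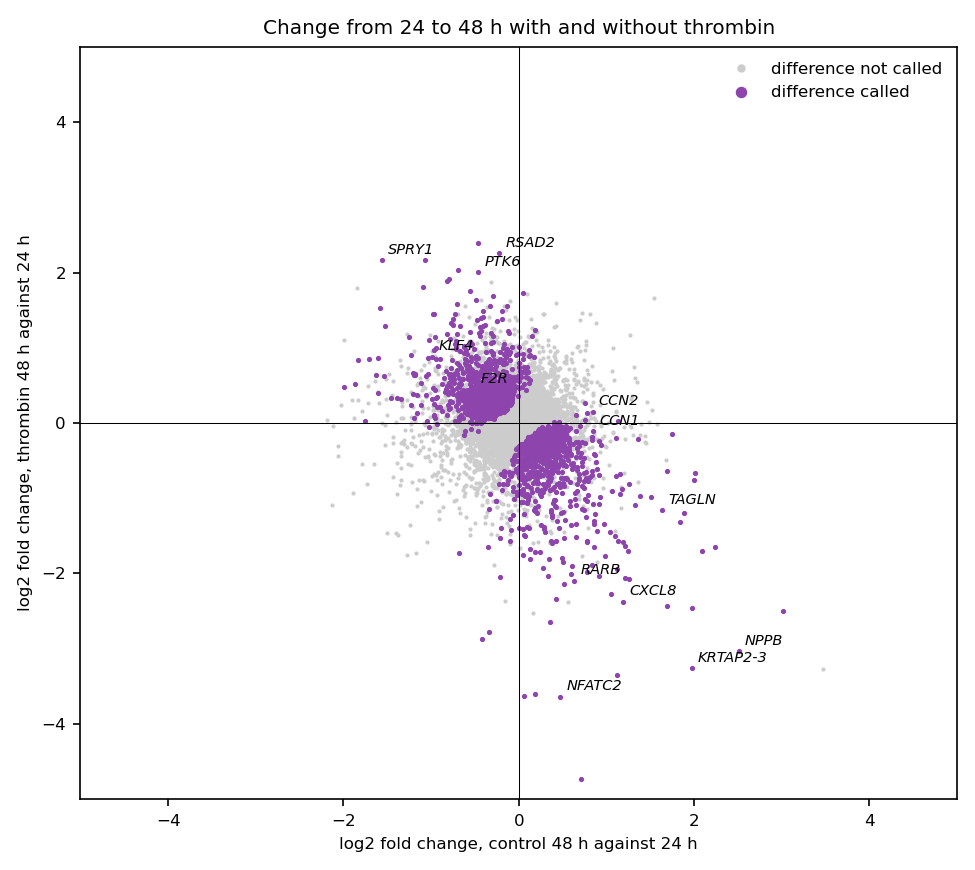
Log2 fold change of 48 h against 24 h in thrombin (vertical) against that in control (horizontal) for the 15353 tested genes; the 2126 purple points had a called difference between the 2 changes. Purple points lie mostly in the upper left and lower right, with NPPB, KRTAP2-3 and TAGLN above 0 in control and below 0 with thrombin, while NFATC2 lies low with a control change of 0.47.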

How the data were processed

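RNA-seq counts came from 18 libraries of LX-2 cells, grouped by GEO's labels. The values deposited by the authors were raw counts for each gene symbol, whole numbers whose totals differ between libraries. The submitters' processing notes name cutadapt 4.9, Bowtie2 2.5.4 with SAMtools 1.21, and also DESeq2 and the build GRCh38 (hg38). The counter, gene models and strandedness are details not given in the sources used here, so genes with near-identical copies, overlapping genes and antisense pairs are uncertain. The table had 28278 symbols, of which 26998 (95.5%) matched the RefSeq table of GRCh38.p14.

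Counts were analysed with edgeR 4.0.16 (R 4.3.3): filterByExpr over the 6 groups (minimum count 10, total 15) kept 15353 genes, with TMM scaling and a robust quasi-likelihood fit of all 18 libraries with a mean per group (biological coefficient of variation 9.07%, with 12 residual degrees of freedom). The contrasts were thrombin 48 h against 24 h, the same in control, and their difference, with Benjamini-Hochberg adjustment over all genes. Levels are TMM-scaled CPM. The procedure was tested on simulated data. Alternatives were other scalings, filters, DESeq2 1.42.0, a replicate block, and left-out libraries.

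The members and the 48 gene lists (1224 entries, 1222 in the table, 1098 tested) were chosen with earlier results of these data known. Named genes were the 10 largest called increases and decreases with libraries apart and at least 1 CPM in the higher group (symbols of uncharacterised loci, microRNA hosts, long non-coding and antisense RNAs left out), from any list with 3 or more members or at least 25% called, the 4 of smallest adjusted p at most, 22 anchor genes, and the 5 largest differences from control in each direction. Values of some genes under this rule are not reported here. Promoters were windows of 250 bases before RefSeq start sites, found for 829 of 1054 list genes, and were searched for 4 motifs.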

Additional observations from a re-analysis of the deposited data

Results flagged for a closer look

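Each result here met a single criterion: the change from 24 h to 48 h differed between thrombin and control wells (edgeR, adjusted p under 0.05 for the difference itself, 4 groups of 3 libraries). Of the 114 named genes 102 did so, 37 with a higher change in thrombin and 65 with a lower one, beside 13.8% of all tested genes; named genes were chosen mostly for their change in thrombin wells, so this share is no independent finding. The values are the thrombin change minus the control change on the log2 scale, and their signs rest on the labels of all 4 groups. Whether the labels of the control 24 h and thrombin 4 h libraries bear on them was not tested.

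Contractile genes differed by -2.80 for TAGLN, -1.07 for FHL2, -0.65 for ACTG1, -0.62 for CSRP1 and -0.81 for CNN1. YAP targets, with F3 among them, had differences of -1.74 for RBMS3, -1.98 for IGFBP3, -1.14 for CRIM1, -1.42 for F3, -0.95 for CCN1 and -0.69 for CCN2. TGF-beta response genes gave values of -1.95 for TGFBI, -2.00 for ADAM19 and -0.99 for SMAD7. Matrix, protease and fibrinolysis genes differed by -1.53 for LOXL2, -1.43 for TIMP3, -1.80 for PLAT, -0.55 for COL1A1, 1.06 for COL4A5, -1.61 for THBS1, -0.98 for THBS2, -0.47 for FBLN2 and -0.78 for VTN. Integrins had differences of -1.34 for ITGA5, -1.23 for ITGB8, -1.37 for ITGA4 and 1.65 for ITGA10. Chemokines and cytokines gave values of -2.01 for CXCL6, -2.17 for CCL2, -2.75 for CCL7, -1.95 for CCL26, -3.57 for CXCL8, -2.17 for LIF, -2.36 for IL1B and -0.61 for RELB. Growth factors, receptors and binding proteins, with the natriuretic peptide gene NPPB listed among them, differed by -5.53 for NPPB, -1.42 for NRG1, -0.97 for PDGFA, -1.37 for FGF2, -1.10 for HBEGF, -1.48 for PDGFRA and -1.61 for IGFBP6. Calcium-linked genes had differences of -4.11 for NFATC2 and -3.32 for TRPC4. Retinoid and quiescence genes gave values of -3.69 for DHRS3, -2.73 for RARB, -1.51 for CYP26B1, -3.06 for RELN and -2.44 for STRA6. Keratins and partners differed by -5.23 for KRTAP2-3, -5.51 for KRTAP2-4, -4.43 for KRT33B, -2.77 for KRT81, -0.72 for KRT8 and 3.24 for PPL. Protease-activated receptors and a thrombin inhibitor had differences of 0.96 for F2R, 1.78 for F2RL1 and 1.07 for SERPINE2. Cholesterol and fatty acid genes gave values of 0.59 for DHCR7, 0.58 for FDFT1, 0.77 for MSMO1, 0.68 for LSS, 0.78 for FADS1, 0.61 for ACSS2, 0.76 for FADS2 and 0.56 for FASN. Interferon-stimulated genes differed by 0.71 for STAT2, -1.68 for GBP1, 1.39 for IFIT2, 1.69 for IFI44 and 2.48 for RSAD2. Complement genes had differences of 1.82 for C3 and 1.46 for C1QTNF1. Lysosomal genes gave values of 0.76 for NEU1 and 1.70 for CTSS. FOXO-linked genes, GAS6 included, differed by 1.09 for TXNIP, 1.23 for MXI1, -0.38 for CDKN1B and 0.69 for GAS6. Immediate early genes had differences of -0.81 for MYC, 1.87 for KLF4, -1.11 for FOSB and -0.95 for FOSL1. Hedgehog genes gave values of 0.66 for PTCH1 and 0.78 for GLI1. Antioxidant and amino acid genes differed by -0.95 for NQO1, -0.69 for TXNRD1 and -1.43 for SLC7A5. Ribosome biogenesis had differences of -0.74 for RRP12. p53 and hypoxia genes gave values of -1.15 for PLK2, 1.26 for BBC3 and 0.96 for ENO2. The remaining named genes differed by -3.00 for BTBD11, -5.43 for LMNTD1, 2.47 for PTK6, 1.68 for SORBS2, 1.98 for KCNH1, 2.91 for PPARGC1A, 3.73 for SPRY1, 2.70 for MOV10L1, 2.82 for KCP and -0.78 for PCDH7.

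The named genes without such a difference were ACTA2, COL1A2, COL7A1, P4HA1, TIMP1, IL6, THBD, F2RL2, EGR1, NDRG1, TRPV6 and PDGFRB.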

How the results depend on the processing

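No called value changed direction under any alternative; F2RL2, not called in any, ran from -0.22 to 0.79. Genes whose change was higher and lower in thrombin numbered 1128 and 1334 with no filter and 1191 and 1208 with DESeq2, against 1100 and 1026. With DESeq2's size factors, upper quartile scaling, a minimum mean of 1 CPM and a fit of the compared groups only, every one of the 114 named genes that could be tested (107 with the minimum) kept its side of the threshold. EGR1 passed with no filter on low counts (1.26), and DESeq2 gave no adjusted p for LMNTD1. Of the 114 genes, 80 kept their side of the threshold under every alternative that gave them a value (15 to 17 of 17), and the most calls were lost without replicate 13 in all groups (30 genes). Without the libraries labelled control 24 h and thrombin 4 h, chosen after seeing the data, THBD (-1.29) and KCP (1.29) lost their calls. For control 48 h against 24 h, risers numbered 844 with no filter, 808 in the fit of compared groups only (803 fallers) and 634 with DESeq2; the cause was not tested.

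The same-numbered libraries did not deviate together (correlations of -0.05, -0.0333 and 0.122 for numbers 12, 13 and 14), so the numbers were not taken as pairs. The replicate block gave 657 risers and 824 fallers for thrombin, 421 and 539 for control, and 1120 higher and 1039 lower for the difference; EGR1 passed in it (1.32).

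Leaving out a library, or a replicate number in all groups, moved thrombin risers between 129 and 842, fallers between 215 and 1131, and those of at least 2-fold between 29 and 75 and between 88 and 166. Control risers moved between 10 and 575, fallers between 6 and 581, and those of at least 2-fold between 4 and 43 and between 1 and 58. Genes whose change was higher in thrombin moved between 253 and 1150, those lower between 269 and 1137, and those of at least 2-fold between 154 and 291 and between 155 and 288. Fewer libraries were fitted in each, and the lowest counts all came without replicate 13 in all groups. The highest thrombin counts came without replicate 12 in all groups. Changes in genes near 1 CPM rest on few reads.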

Other observations

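Replication-dependent histones, whose messages mostly lack a poly(A) tail, summed to between 217 and 226 CPM in thrombin 24 h libraries and between 183 and 198 CPM in thrombin 48 h libraries. Of 17 tested members 2 fell, beside 5.41% of all genes, and 0 rose. The fallers numbered 1 without replicate 13 of either time, and 0 without replicate 12 or 14 of either time. In the fit of the compared groups only they numbered 0.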
